A study of Homo sapiens with 6 samples.

Results

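The comparison of RIPK1 plasmid with empty vector was examined in PA-1, a teratocarcinoma line derived from a human ovary. Of 20494 genes in the table, the 11880 with a mean of at least 1 RPKM over the 6 libraries of the series were described; RPKM is a read number divided by the gene's length and the library's total. The RIPK1 gene itself was set aside as the check of the label. PA-1 cells grew in DMEM and Ham's F12 with serum, and total RNA was sequenced. The RIPK1, RIPK2, RIPK3 and RIPK4 groups took 8 µg of a plasmid for 48 h, the Wnt3a group took 200 ng of that ligand for 16 h, and the Vector group took 8 µg of pCDNA3.1 for 48 h. The labels do not say whether the Wnt3a cells took a plasmid, from which species the kinase sequences came, or which share of cells was transfected. Each group has 1 library, so neither an SD nor a p-value can be had, and every difference is one between libraries.

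RIPK1 is a kinase and adaptor that binds the activated TNF receptor and death receptors, where its ubiquitinated form serves as a platform for NF-kB and MAP kinase activation and its unmodified form can nucleate complexes that lead to apoptosis or necroptosis. Type I interferon acts through a separate receptor, whose JAK kinases phosphorylate STAT proteins. These join IRF9 and bind the interferon-stimulated response element, a repeat of GAAA spaced by a pair of bases, in the promoters of antiviral genes.

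Library totals were 19.5 M reads for RIPK1, between 18.3 M and 19.3 M for RIPK2, RIPK3, RIPK4 and Wnt3a, and 17.2 M for Vector. A floor of 3 reads over 2 kb came to 0.0769 RPKM in RIPK1 and 0.0870 RPKM in Vector. The RIPK1 gene (gene identifier 8737) stood at 16.6 RPKM with 1416 reads in the RIPK1 library, at 12.7 RPKM in RIPK2, 13.4 in RIPK3, 11.2 in RIPK4 and 9.35 in Wnt3a, and at 12.8 RPKM with 963 reads in Vector. It was highest in its own library, by 1.30-fold over Vector (95% interval 1.20 to 1.41). The RIPK1 library was the highest for 20.9% of all genes kept, so this rise does not by itself show overexpression. Here and below, ranges in brackets are exact binomial intervals of the ratio of RPKM values and cover counting error only.

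Embryonal identity genes marked both libraries in like measure. SOX2 stood at 133 RPKM in RIPK1 and 149 RPKM in Vector, LIN28A at 392 and 339 RPKM in the same libraries, and POU5F1 at 13 RPKM in both, while NANOG was at 0.0977 RPKM in RIPK1 and 0.221 RPKM in Vector. Of the 22 genes in that list 15 were kept, none was 2-fold apart, and their median difference was -0.02. Among markers of other cells, 1 of 13 haematopoietic genes was kept (CD68, at 1.52 RPKM in RIPK1 and 1.94 RPKM in Vector). PTPRC, the pan-leukocyte phosphatase, was at 0 in RIPK1 and 0.00849 RPKM in Vector. Kept too were 6 of 11 fibroblast, 6 of 10 endothelial and 3 of 12 trophoblast and extraembryonic endoderm markers, and none was 2-fold apart. The summed level of the kept markers was 192 RPKM in RIPK1 and 216 RPKM in Vector for fibroblasts, 77.1 and 74.2 RPKM in the same libraries for endothelium, and 15.4 and 17.3 RPKM for trophoblast and endoderm. DCN, ERG and KRT7, a member of each of these 3 lists, were listed at 0 in all 6 libraries, but other members were not. THY1 of the fibroblast list stood at 64.9 RPKM in RIPK1 and 79.2 RPKM in Vector. TEK of the endothelial list was at 13.8 RPKM in RIPK1 and 11.1 RPKM in Vector. TFAP2C of the trophoblast and endoderm list was at 6.61 RPKM in RIPK1 and 7.89 RPKM in Vector. The absence of single members thus does not speak for their lists.

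Interferon-stimulated genes made up most of the protein-coding genes that differed, and the promoters of several of them hold the element described above. Printed are the 4 genes with the largest falls among those that hold a match, with ISG15 added because it encodes the ubiquitin-like modifier of the response. Each window runs from 250 bases before the annotated start of the gene to 50 after it, 5′ to 3′ on the gene's strand, from RefSeq on GRCh38.p14. Capitals mark every match, on either strand, to GAAA followed by any 2 bases and GAAA again (TTTC, any 2 bases and TTTC where the match is on the opposite strand), and in ISG15 a pair of matches overlap by 4 bases. The windows are chr14:94110486-94110785 on the plus strand for IFI27, chr1:27672143-27672442 on the minus strand for IFI6, chr12:112938224-112938523 on the plus strand for OAS3, chr10:89392373-89392672 on the plus strand for IFIT1 and chr1:1013247-1013546 on the plus strand for ISG15.
IFI27: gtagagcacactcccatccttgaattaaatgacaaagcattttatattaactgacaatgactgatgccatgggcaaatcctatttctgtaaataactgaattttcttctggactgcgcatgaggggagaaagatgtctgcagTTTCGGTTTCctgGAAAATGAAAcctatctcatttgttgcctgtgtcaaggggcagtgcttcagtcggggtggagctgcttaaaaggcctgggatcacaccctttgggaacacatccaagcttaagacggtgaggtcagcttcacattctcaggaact
IFI6: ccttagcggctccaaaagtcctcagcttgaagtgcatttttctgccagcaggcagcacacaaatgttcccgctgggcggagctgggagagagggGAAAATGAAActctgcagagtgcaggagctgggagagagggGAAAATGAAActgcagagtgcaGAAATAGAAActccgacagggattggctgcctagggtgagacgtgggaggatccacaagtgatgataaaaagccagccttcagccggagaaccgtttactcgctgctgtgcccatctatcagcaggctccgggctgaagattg
OAS3: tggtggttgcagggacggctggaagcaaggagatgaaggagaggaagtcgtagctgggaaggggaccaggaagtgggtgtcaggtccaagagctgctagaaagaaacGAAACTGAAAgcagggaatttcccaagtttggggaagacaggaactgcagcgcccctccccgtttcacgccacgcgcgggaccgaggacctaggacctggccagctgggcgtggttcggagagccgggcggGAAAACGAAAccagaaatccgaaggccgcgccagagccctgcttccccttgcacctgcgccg
IFIT1: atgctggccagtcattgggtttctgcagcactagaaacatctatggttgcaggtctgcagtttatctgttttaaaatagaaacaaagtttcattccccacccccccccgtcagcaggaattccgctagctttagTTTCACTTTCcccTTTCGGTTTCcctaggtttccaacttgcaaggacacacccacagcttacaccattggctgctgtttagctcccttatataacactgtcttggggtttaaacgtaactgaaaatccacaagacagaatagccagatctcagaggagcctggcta
ISG15: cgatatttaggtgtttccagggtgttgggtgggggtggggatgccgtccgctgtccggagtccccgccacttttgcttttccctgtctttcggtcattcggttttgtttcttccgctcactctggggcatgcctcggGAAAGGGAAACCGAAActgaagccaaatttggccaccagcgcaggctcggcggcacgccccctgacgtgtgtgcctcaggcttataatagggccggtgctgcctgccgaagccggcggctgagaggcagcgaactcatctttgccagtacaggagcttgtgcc

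Over all protein-coding genes kept, 9442 had a promoter window and 343 of these held the motif (3.63%), close to the 1255 of 35116 windows in the whole table (3.57%). Of the 35 genes with a window that were at least 2-fold lower with RIPK1, 20 held it (57.1%), and of the 7 that were at least 2-fold higher, 1 did (14.3%). Within the interferon lists described next, 37 of 79 genes with a window held it (46.8%). Their median difference was -1.04, against -0.42 for the 42 without a match. Of the 35 lower genes with a window, 28 were in these lists and 19 of them held the motif (67.9%). Among the 7 outside the lists, 1 did (14.3%). OAS1 and XAF1 had no match in the window and were also at least 2-fold lower. A match is a description of letters and does not show that a factor bound there.

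**Figure D1:**
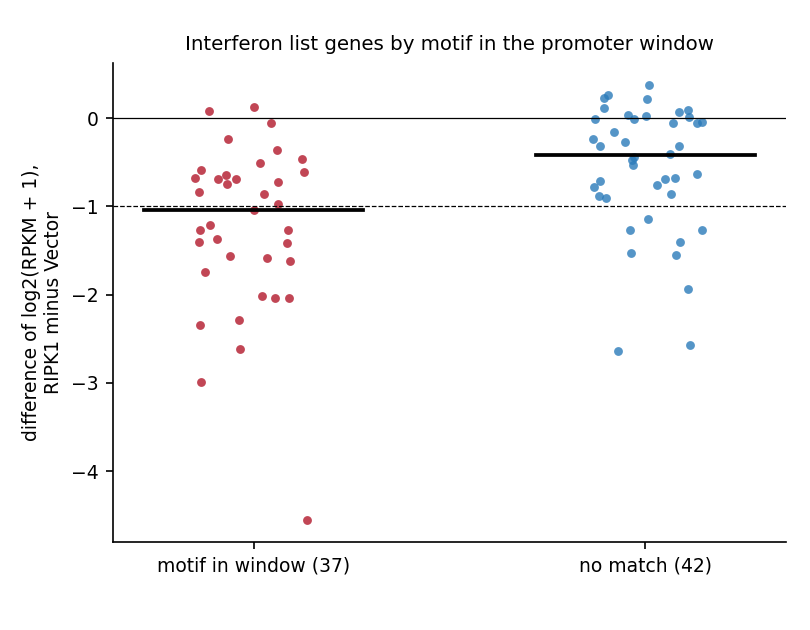
Difference of log2(RPKM + 1), RIPK1 minus Vector, for kept interferon list genes with a promoter window, split by a match to the motif; each point is a gene, bars are medians and the dashed line marks 2-fold lower. The 37 genes with a match have a median of -1.04 and the 42 without have a median of -0.42, and both sets reach below the 2-fold line.

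Differences are given as log2(RPKM + 1), RIPK1 minus Vector, a scale that understates changes of genes with low values, and a gene is called higher or lower where the difference is at least 2-fold on it. By this rule 65 genes were lower (0.547% of all genes kept) and 35 higher (0.295%). The median over all genes was 0.01, and 95% of genes lay between -0.50 and 0.41. Genes at least 1.5-fold apart numbered 316 (2.66%; 1.76% lower and 0.901% higher), fewer than in any of the other comparisons with Vector, where 8.00% to 16.8% of genes were that far apart. Of 11379 protein-coding genes, 47 were lower (0.413%) and 11 higher (0.0967%). Of 176 small RNAs, 17 were lower (9.66%) and 14 higher (7.95%). Of 137 pseudogenes, 0 were lower and 9 higher (6.57%).

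**Figure D2:**
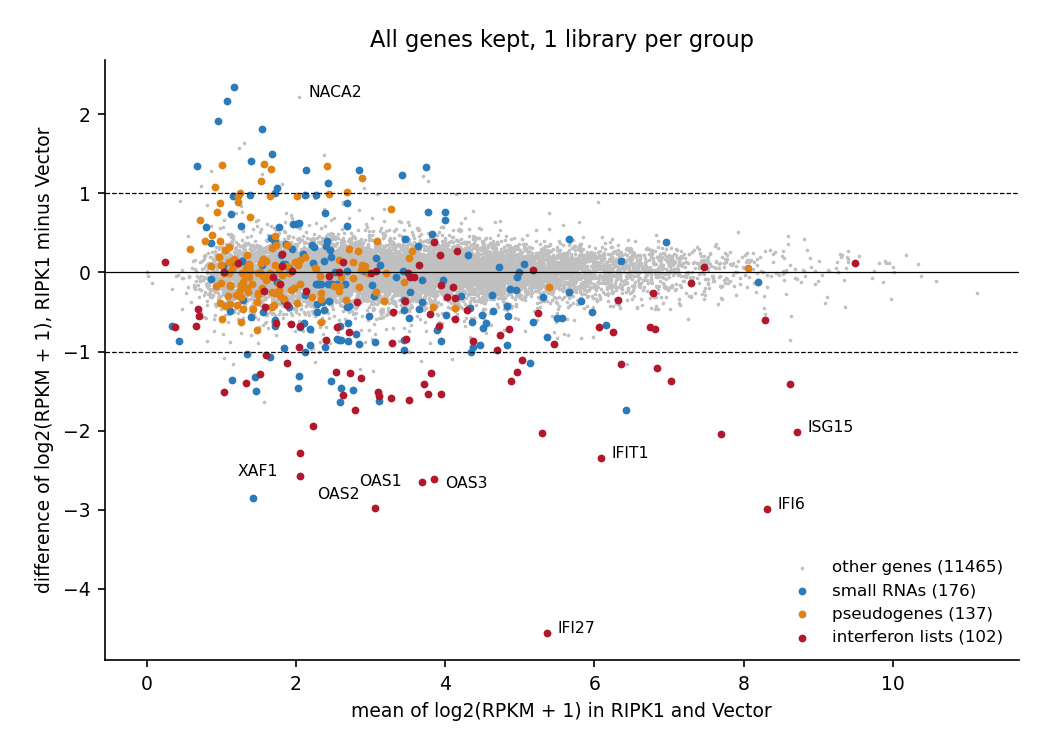
Difference of log2(RPKM + 1), RIPK1 minus Vector, against the mean of both libraries for all 11880 genes; dashed lines mark 2-fold and colours mark the interferon lists, small RNAs and pseudogenes. Interferon list genes leave the cloud downwards at all levels, IFI27 the farthest at -4.55, while rises lie among genes of low level.

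Genes of the interferon response were lower across most of its branches. The lists hold 135 genes with a value, of which 102 were kept, and 37 of them were at least 2-fold lower and none higher, against 0.547% lower over all genes. At least 1.5-fold lower were 60 of the 102, against 1.76% of all genes, and 86 stood below Vector in RPKM, against 47.8%. The median difference of the 102 genes was -0.69. The 37 falls ranged from 2.22-fold to 26.5-fold in RPKM, each with the lower limit of its interval above 2, and each rested on at least 109 reads in Vector. In a bulk sample, a fall in all cells and a loss of transcript from some of them cannot be told apart.

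Oligoadenylate synthetases, which make an antiviral second messenger when they bind double-stranded RNA, were lowest as a family, with 4 of 5 members lower and a median of -2.61. OAS2 stood at 1.99 RPKM in RIPK1, 48.8 in RIPK2, 58.9 in RIPK3, 21.3 in RIPK4 and 5.99 in Wnt3a, and at 22.5 RPKM in Vector. RIPK1 was below every other library, with 239 reads against 2390 in Vector, an 11.3-fold fall (9.90 to 13). OAS1 was at 4.15 RPKM in RIPK1, 11.2 to 70.9 RPKM in the other plasmid and ligand libraries and 31.2 RPKM in Vector. OAS3 was at 4.85 RPKM in RIPK1, 28.3 to 91.1 RPKM in those libraries and 34.8 RPKM in Vector. The catalytically inactive relative OASL was 4.11-fold lower (2.72 to 6.38).

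The IFIT proteins, which bind foreign 5′ ends of RNA, were all below Vector, 3 of the 4 kept by at least 2-fold, with a median of -1.68. IFIT1 stood at 29.1 RPKM in RIPK1, 196 in RIPK2, 239 in RIPK3, 102 in RIPK4 and 31.2 in Wnt3a, and at 152 RPKM in Vector, a 5.23-fold fall (5.02 to 5.46). RIPK1 and Wnt3a were the low libraries of this family. IFIT3 was at 2.79 RPKM in RIPK1, 2.97 RPKM in Wnt3a and 11.6 RPKM in Vector, and IFIT5 at 5.54 RPKM in RIPK1, 5.25 RPKM in Wnt3a and 19.1 RPKM in Vector. IFIT2, at 1.97 RPKM in RIPK1 and 4.68 RPKM in Vector, missed the rule at -0.94.

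Small and membrane-bound effectors held the largest single fall. IFI27, a small hydrophobic protein of mitochondrial and nuclear membranes, stood at 7.54 RPKM with 120 reads in RIPK1 and at 200 RPKM with 2809 reads in Vector, 26.5-fold lower (22.1 to 32.1). It was at 334 RPKM in RIPK2, 415 in RIPK3, 273 in RIPK4 and 193 in Wnt3a, so that RIPK1 alone was low. IFI6, a related protein, stood at 112 RPKM in RIPK1, between 828 and 1405 RPKM in RIPK2, RIPK3, RIPK4 and Wnt3a, and at 896 RPKM in Vector. Of the 20 genes kept in this group 12 were lower, with a median of -1.32. The entry-blocking membrane proteins IFITM1 (101 RPKM in RIPK1, 419 RPKM in Vector) and IFITM3 (240 RPKM in RIPK1, 642 RPKM in Vector) were among them, whereas IFITM2 was at 69.7 RPKM in RIPK1 and 88.8 RPKM in Vector. The IFITM genes are close in sequence, and how reads common to them were counted is not given in the sources used here. XAF1, a proapoptotic zinc-finger protein, was 13-fold lower (10.2 to 16.7). The secreted galectin-binding protein LGALS3BP was 4.26-fold lower (3.94 to 4.60), and the dNTP hydrolase SAMHD1 2.48-fold lower (2.30 to 2.67). BST2, the tether of budding virions, was below Vector by less than 2-fold, at 254 RPKM in RIPK1 and 386 RPKM in Vector. The best-known antiviral GTPases fell below the filter. MX1 had 5 reads (0.0711 RPKM) in RIPK1 and 14 (0.225 RPKM) in Vector, 3.17-fold lower but with a wide interval (1.08 to 11.2). MX2, at 0 in RIPK1 and 0.021 RPKM in Vector, had too few reads to compare.

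**Figure D3:**
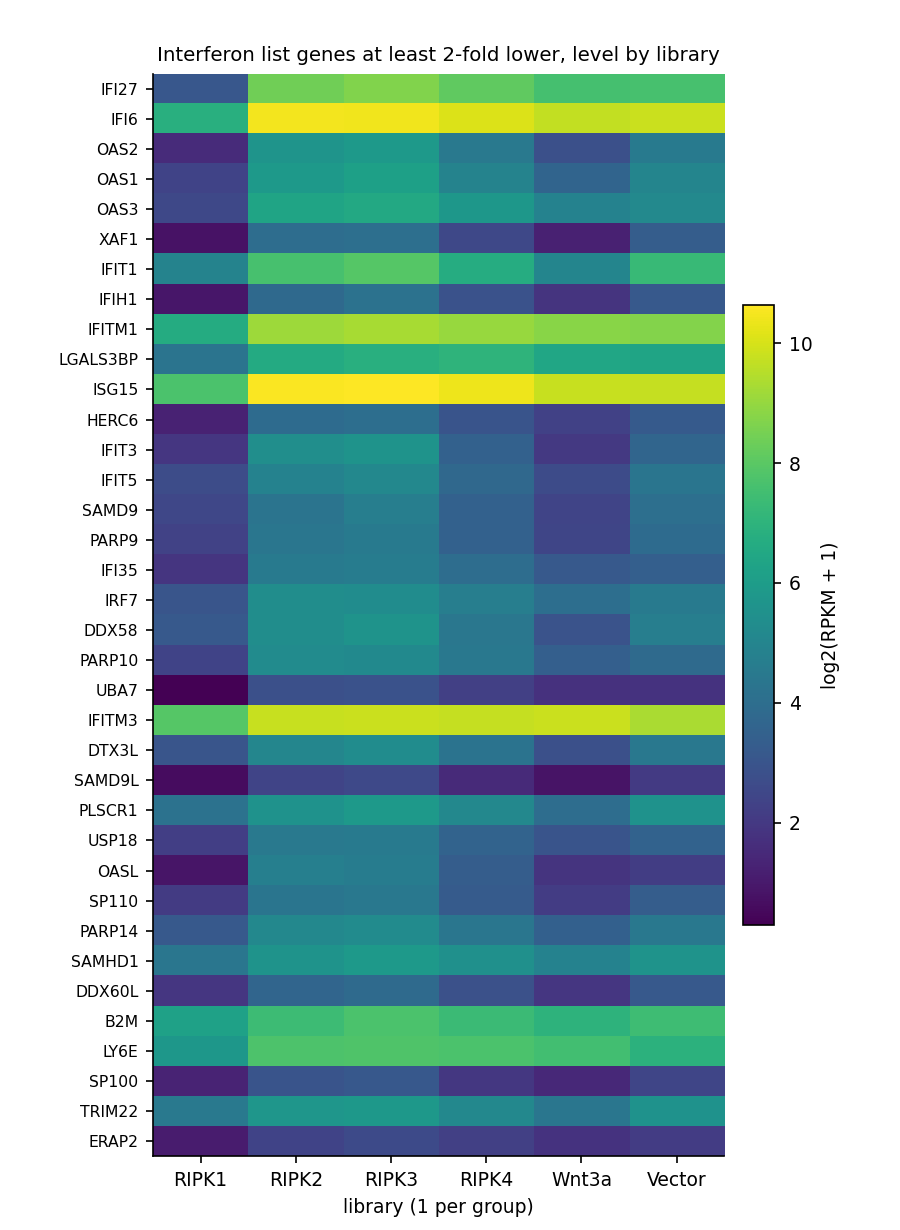
Level, as log2(RPKM + 1), of 36 of the 37 interferon list genes that were at least 2-fold lower with RIPK1, in each of the 6 libraries, ordered by their difference with the largest fall on top. The RIPK1 column is the darkest in 30 rows and the Wnt3a column in the other 6.

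In the ISG15 pathway 4 of 7 kept genes were lower, with a median of -1.33. ISG15 stood at 209 RPKM in RIPK1, 1547 in RIPK2, 1603 in RIPK3, 1345 in RIPK4 and 882 in Wnt3a, and at 849 RPKM in Vector, 4.07-fold lower (3.91 to 4.24). Its activating enzyme UBA7 had 14 reads in RIPK1 and 141 in Vector, 11.4-fold lower (6.57 to 21.4). The protease that removes ISG15, USP18, was 2.94-fold lower (2.42 to 3.59). All 7 genes kept were lowest in RIPK1 of the 6 libraries, against 21% of all genes. The conjugating enzyme UBE2L6 (-0.91) and the ligases HERC5 (-0.97) and TRIM25 (-0.78) did not pass the rule, while HERC6, which resembles HERC5, was 5.85-fold lower (4.90 to 7.03).

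ADP-ribosyltransferases, TRIM proteins and nuclear body components had 7 of 18 kept genes lower, with a median of -0.69. PARP9 and its ubiquitin ligase partner DTX3L were at 4.02 and 7.07 RPKM in RIPK1, against 13.8 and 20.4 RPKM in Vector. PARP10, a mono-ADP-ribosyltransferase, was 3.30-fold lower (2.89 to 3.79). TRIM22 was 2.22-fold lower (2.10 to 2.35), the smallest of the 37 falls as a ratio. The nuclear body protein SP100 passed the rule at -1.14, and PML, which organises those bodies, did not at -0.69. Members near 0 included NUB1 (-0.06), TRIM26 (-0.06) and SP140L (0.01).

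Sensors of foreign RNA were split. IFIH1, the sensor of long double-stranded RNA, stood at 0.876 RPKM in RIPK1 with 69 reads and at 8.16 RPKM in Vector with 568 reads, 9.31-fold lower (7.24 to 12.1). DDX58, which encodes RIG-I and senses 5′ triphosphate RNA, was at 8.09 RPKM in RIPK1, 40.4 in RIPK2, 47.2 in RIPK3, 19.8 in RIPK4 and 6.54 in Wnt3a, and at 25.3 RPKM in Vector. The double-stranded RNA-dependent kinase EIF2AK2 was at 30.8 RPKM in RIPK1 and 44.3 RPKM in Vector, under the rule at -0.51. MAVS, the adaptor to which both sensors signal, lay on the other side of Vector at 15.5 RPKM in RIPK1 and 13.2 RPKM in Vector, and the DNA pathway adaptor TMEM173 (STING) was at 1.43 and 1.24 RPKM in those libraries. In all, 3 of 12 kept genes were lower and the median was -0.63. In the Wnt3a library the median of the same 12 genes against Vector was -0.96, and their summed level was 250 RPKM in RIPK1, 207 RPKM in Wnt3a and 373 RPKM in Vector. RIPK1 was the lowest of the 6 libraries for 4 of the 12.

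Most receptors and kinases of the interferon pathway stood near Vector, and most of its transcription factors below. Exceptions included the receptor chain IFNGR2 (-0.32) and the factor STAT3 (0.03). The receptor chain IFNAR1 was at 4.37 RPKM in RIPK1 and 4.53 RPKM in Vector, IFNAR2 at 5.51 and 4.93 RPKM, and the kinase JAK1 at 7.47 and 7.35 RPKM. IRF7, a factor that is itself interferon-stimulated and drives type I interferon genes, was at 7.03 RPKM in RIPK1, 40.2 in RIPK2, 38.9 in RIPK3, 25.1 in RIPK4 and 15.2 in Wnt3a, and at 22.3 RPKM in Vector, 3.17-fold lower (2.78 to 3.63). Of 20 kept genes 2 passed the rule, IRF7 among them, and the median was -0.11. IRF9 (-0.86), the feedback inhibitor SOCS1 (-0.86) and STAT2 (-0.48) were below Vector without passing it, and IRF3, which does not need interferon for its expression, was at -0.19. IFNB1, the gene of interferon beta, was left out by the filter, with 0 reads in RIPK1, 1.79 RPKM in RIPK2, 1.06 in RIPK3, 0.325 in RIPK4 and 0 in Wnt3a, and with 4 reads (0.276 RPKM) in Vector. The reads in RIPK1 and Vector are too few to compare, since the interval of their ratio includes 1.

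Antigen presentation by MHC class I had 2 of 16 kept genes lower, with a median of -0.44. B2M, the light chain, stood at 74.2 RPKM in RIPK1, 168 in RIPK2, 210 in RIPK3, 163 in RIPK4 and 124 in Wnt3a, and at 173 RPKM in Vector. The aminopeptidase ERAP2 was 3.01-fold lower (2.44 to 3.72). The proteasome activator subunits PSME1 (-0.69) and PSME2 (-0.72) were below Vector, and the chaperones CALR (0.12) and CANX (0.07) above. HLA-C was at 6.22 RPKM in RIPK1 and 12.4 RPKM in Vector and HLA-B at 2.28 RPKM in RIPK1 and 4.25 RPKM in Vector. Heavy-chain values are uncertain, as reads may be shared among these near-identical genes. The length recovered for HLA-B was 16091 bases, and those of several other genes in the MHC region were also long. A long length lowers RPKM, so the filter and the log2(RPKM + 1) scale may understate the differences of this group.

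**Figure D4:**
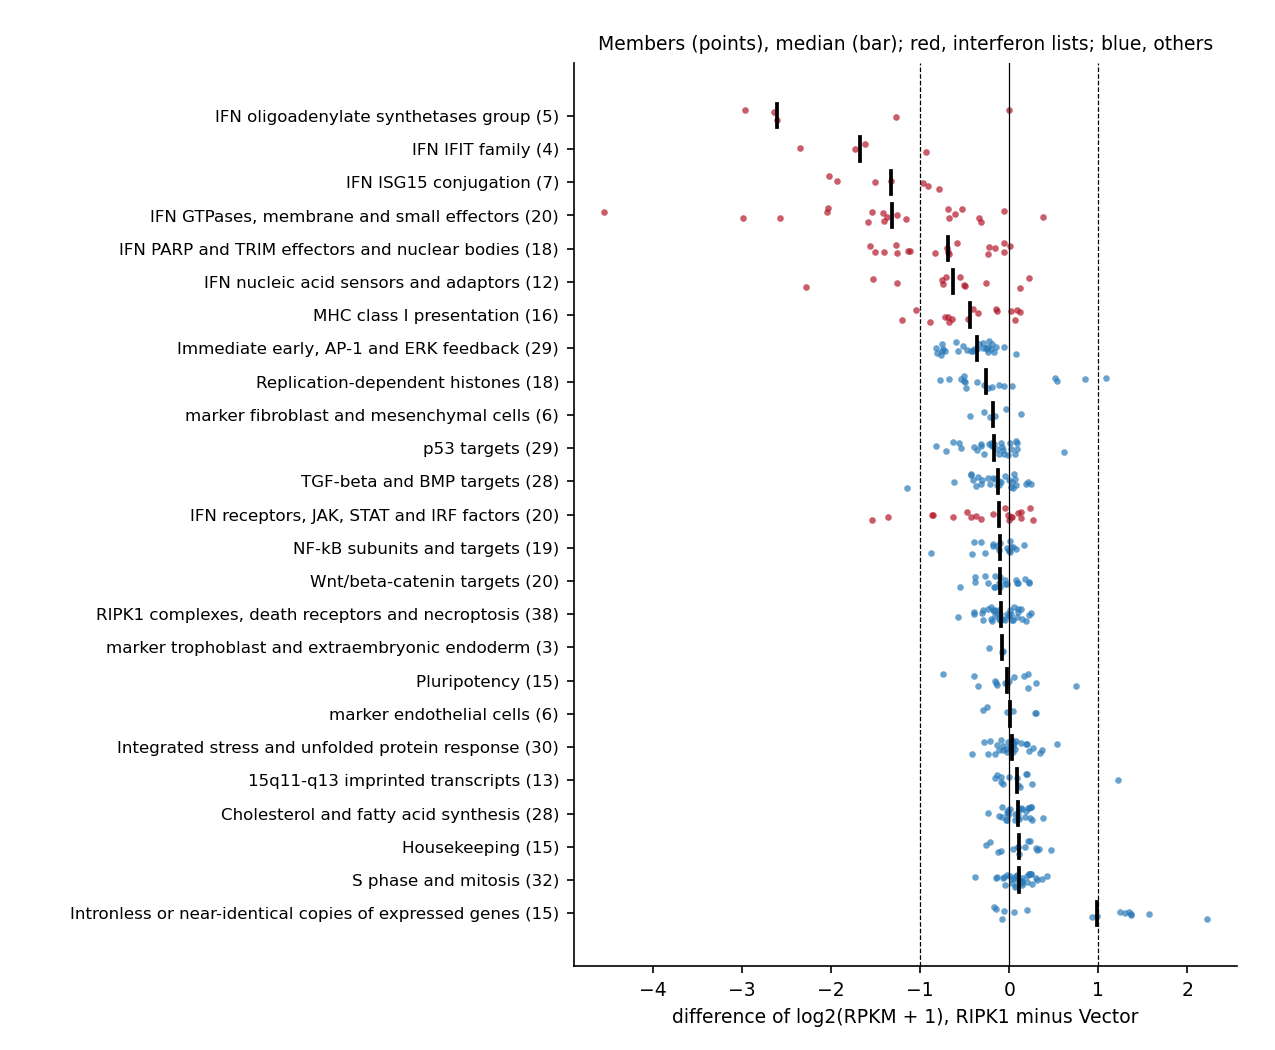
Difference of log2(RPKM + 1), RIPK1 minus Vector, for the kept members of each list with at least 3 of them (number in brackets; IFN stands for interferon); points are genes, short bars are list medians and dashed lines mark 2-fold. Medians run from -2.61 for the oligoadenylate synthetases to 0.99 for copies of expressed genes. Those of RIPK1 partners, NF-kB, p53, Wnt and mitosis genes lie between -0.17 (p53) and 0.12 (mitosis).

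The remaining 33 interferon list genes in the table fell below the filter. Of these, 13 were at 0 in RIPK1, 11 in Vector and 2 in all 6 libraries, and none was above 0.567 RPKM in RIPK1 or 0.761 RPKM in Vector. In RPKM, 19 of the 33 stood below Vector and 5 above, and the others had the same value in both libraries. At such low levels these counts are only a description. NLRC5, the transactivator of MHC class I genes, had 1 read in RIPK1 and 26 in Vector.

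Among all 6 libraries, RIPK1 was the lowest for 68 of the 102 kept interferon list genes, against 21% of all genes. Set directly against the other libraries, 58 of the 102 were at least 2-fold lower in RIPK1 than in RIPK2 (2.74% of all genes), 61 than in RIPK3 (2.4%), 38 than in RIPK4 (0.732%) and 19 than in Wnt3a (0.833%), and none was 2-fold higher than in any of them. The medians of the 102 were -1.17 against RIPK2, -1.26 against RIPK3, -0.71 against RIPK4 and -0.29 against Wnt3a. Vector was the highest of the 6 libraries for none of the 37 falls, against 19.3% of all genes, RIPK3 for 32, RIPK2 for 4 and RIPK4 for 1. The 37 were chosen by the same RIPK1 values, so their differences from the other libraries are a description: all 37 were at least 2-fold lower than in RIPK2 and in RIPK3, 32 than in RIPK4 and 15 than in Wnt3a. Another 6 stood higher in RIPK1 than in Wnt3a, namely DDX58, DTX3L, IFIT5, PLSCR1, SAMD9 and TRIM22, and all 6 were less than 2-fold apart between these libraries. The Wnt3a group differs from the plasmid groups in ligand, time and perhaps plasmid, which cannot be told apart.

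The RIPK1 library held 18 genes (0.152%) that were 2-fold or more under all 5 others, and 0 that were 2-fold above all of them. Of the 18, 17 were protein coding and 15 of those were interferon list genes: IFI27, IFI6, IFI35, IFITM1, IFITM3, LY6E, LGALS3BP, OAS1, OAS2, OAS3, ISG15, UBA7, HERC6, IRF7 and PARP10. The other protein-coding genes were C19orf66, which encodes the antiviral protein shiftless, and PRIC285, a helicase-like nuclear coactivator also called HELZ2. C19orf66 stood at 0.688 RPKM in RIPK1, 2.95 to 10.5 RPKM in RIPK2, RIPK3, RIPK4 and Wnt3a, and 4.24 RPKM in Vector. No other library held more than 2 protein-coding genes 2-fold below all the others.

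C19orf66 and PRIC285 belong to the 10 protein-coding genes outside the interferon lists that were lower than in Vector. VGF, a neuropeptide precursor, was at 7.11 RPKM in RIPK1 and 15.2 RPKM in Vector, 2.14-fold lower (1.88 to 2.45) and the gene nearest to the threshold among those past it. CAPRIN2, an RNA-binding protein, was 2.24-fold lower (2.08 to 2.42). PP2D1, a phosphatase-domain protein, was at 2.5 RPKM in RIPK1 and 6.04 RPKM in Vector, but lower still in Wnt3a at 0.747 RPKM. It was the 1 gene of the 10 for which RIPK1 was not the lowest library.

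Some of these 10 sit next to an interferon list gene, or next to each other, in the RefSeq gene order. HES4, a basic helix-loop-helix repressor, neighbours ISG15 and was at 7.69 RPKM in RIPK1 and 17.8 RPKM in Vector. C20orf118 (TLDC2) neighbours SAMHD1 and was at 4.32 RPKM in RIPK1 and 11.6 RPKM in Vector. REC8, the meiotic cohesin subunit, neighbours IRF9, while ANGPTL6, an angiopoietin-like secreted protein, neighbours C19orf66, which is outside the lists. REC8 was 2.73-fold lower (2.16 to 3.48), and ANGPTL6 was 4.71-fold lower (2.79 to 8.38). Of 26 kept protein-coding genes outside the lists that lie beside a lowered interferon gene, 2 were lower (7.69%), against 8 of the 11251 that do not (0.0711%), and the median of the 26 was -0.01. Whether reads of one gene were counted for its neighbour was not tested.

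Genes of the complexes in which RIPK1 acts stood near Vector. Of the 38 kept genes, RIPK3 and RIPK4 were at 0 in both libraries and passed the filter through the libraries that carry their plasmids. None of the other 36 was 1.5-fold apart on log2(RPKM + 1), with 23 below Vector, 13 above and a median of -0.10. The largest difference on that scale was that of RNF31, the catalytic subunit of the linear ubiquitin ligase. It was at 14.9 RPKM in RIPK1 and 22.7 RPKM in Vector, 1.52-fold lower in RPKM. Its partner RBCK1 (-0.40) and the TNF receptor adaptor TRADD (-0.39, 1.58-fold lower in RPKM) were also below. Over the 38 genes, RIPK1 was the lowest of the 6 libraries for 16 (21% of all genes) and the highest for 7 (20.9%). With the median of the other 5 libraries as the reference, the median of the list was -0.21. Named after their values were seen, TNFRSF1A stood at 16.6 RPKM in RIPK1 and 19 RPKM in Vector, CASP8 at 6.13 and 7.77 RPKM, FADD at 16.5 and 18.6 RPKM, and the deubiquitinase CYLD at 2.17 and 2.05 RPKM. MLKL, the substrate of the necroptosis kinase RIPK3, was at 0.687 RPKM in RIPK1 and 0.960 RPKM in Vector.

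NF-kB subunits and targets had no member past 2-fold among 19 kept, and a median of -0.11. RIPK1 was the lowest of the 6 libraries for 11 of the 19 (21% of all genes) and the highest for 1 (20.9%). With the median of the other 5 libraries as the reference, the median of the list was -0.32. CXCL2, a neutrophil chemokine, came nearest with 14 reads in RIPK1 and 40 in Vector, 3.23-fold lower in RPKM (1.72 to 6.43) but at -0.88 on the log2(RPKM + 1) scale. Named after their values were seen, the feedback inhibitors NFKBIA, at 8.11 RPKM in both libraries, and TNFAIP3, at 1.67 RPKM in RIPK1 and 1.81 RPKM in Vector, lay within the spread of most genes. IL6 and CCL20 were at 0 in both.

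Immediate early genes, AP-1 subunits and ERK feedback regulators were below Vector as a group without any member past 2-fold. Of 29 kept, 28 stood below Vector (47.8% of all genes), 23 were lowest in RIPK1 of the 6 libraries (21%), 8 were at least 1.5-fold lower (1.76%), and the median was -0.36. DUSP6, the ERK phosphatase, stood at 41.5 RPKM in RIPK1, 99.7 in RIPK2, 106 in RIPK3, 67.5 in RIPK4 and 55.1 in Wnt3a, and at 74.2 RPKM in Vector, 1.79-fold lower (1.70 to 1.89). The receptor signalling inhibitor SPRY4 was 1.82-fold lower (1.70 to 1.94), the zinc-finger factor EGR1 1.74-fold (1.61 to 1.88) and IER3 1.89-fold (1.69 to 2.11). In each of these 4 genes RIPK1 was the lowest library.

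Among the lists of p53, TGF-beta, Wnt, cell division, stress response, lipid synthesis and housekeeping genes, 1 gene was past 2-fold. p53 targets had a median of -0.17 over 29 genes, with the ribosomal protein RPS27L at 46.7 RPKM in RIPK1 and 83.3 RPKM in Vector and the BH3-only protein PMAIP1 at 3.63 and 6.58 RPKM, but the RNA-binding protein ZMAT3 at 8.49 and 5.18 RPKM. TGF-beta and BMP targets had a median of -0.13 over 28, with that 1 gene past 2-fold. Wnt/beta-catenin targets had a median of -0.10 over 20, and none was past 2-fold. S phase and mitosis genes lay on the other side, with 7 of 32 below Vector, 17 highest in RIPK1 (20.9% of all genes) and a median of 0.12. MKI67, the proliferation marker, was at 33.2 RPKM in RIPK1 and 24.4 RPKM in Vector. The median was 0.03 over 30 stress response genes, 0.10 over 28 cholesterol and fatty acid synthesis genes and 0.11 over 15 housekeeping genes, against 0.01 over all genes, and none of these was 1.5-fold apart. TRIM71, a let-7 target that binds RNA and ubiquitinates proteins, was the member of the embryonal list farthest above Vector, at 53.7 RPKM in RIPK1 and 31.4 RPKM in Vector, where Vector was the lowest of the 6 libraries.

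Of the 35 genes at least 2-fold higher with RIPK1, Vector was the lowest of the 6 libraries for 25 (21.6% of all genes) and RIPK1 the highest for 12 (20.9%). The genes were chosen by the RIPK1 and Vector values, which raises both counts, so nothing is read from those shares. Set directly against the other libraries, 8 of the 35 were also 2-fold higher in RIPK1 than in RIPK3 (0.396% of all genes), 6 than in RIPK2 (0.598%), 5 than in Wnt3a (0.547%) and 3 than in RIPK4 (0.185%). The same choice by RIPK1 values raises these counts as well, so they are a description. With small RNAs set aside 21 rises remained, and Vector was lowest for 18 of them.

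Copies of expressed genes led these rises. NACA2, an intronless copy of the nascent polypeptide chaperone NACA, had 118 reads in RIPK1 and 12 in Vector, 8.69-fold higher (4.79 to 17.3). It stood at 7.85 RPKM in RIPK1, 8.21 in RIPK2, 4.56 in RIPK3, 2.76 in RIPK4 and 4.21 in Wnt3a, and at 0.904 RPKM in Vector, so that Vector alone was low. The parent NACA was at 87.0 RPKM in RIPK1 and 74.1 RPKM in Vector, above the copy in both. GLUD2, a retrogene of glutamate dehydrogenase, was at 3.49 RPKM in RIPK1 and 0.895 RPKM in Vector, and its parent GLUD1 at 62.0 and 56.0 RPKM. H3F3C, a copy of the histone gene H3F3B, was at 3.69 RPKM in RIPK1 and 0.824 RPKM in Vector, where the parent was at 160 and 175 RPKM.

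Of the 15 genes kept in the list of such copies, 7 were higher (0.295% of all genes), with a median of 0.99. The list was drawn up with earlier results of these data known. Its share is thus not independent of the rises, and nothing is read from it. With the median of the other 5 libraries as the reference in place of Vector, none of the 15 was 2-fold higher and the median was 0.30. With a mean of at least 5 RPKM, 7 of the list were kept, 1 of them was higher and the median was 0.06. All 9 pseudogenes that were higher reached their highest level in RIPK2, as did 59 of all 137 pseudogenes kept (43.1%). Vector was the lowest library for 8 of the 9, and for 38 of the 137 (27.7%). The 9 were chosen as higher than Vector, which raises that count, so nothing is read from it. HNRNPCL1 and LOC649330, copies of each other, had identical reads in all 6 libraries, 66 in RIPK1 and 7 in Vector, and so count as 1 observation. EDARADD, the ectodysplasin receptor adaptor, stood at 7.68 RPKM in RIPK1 and 2.09 RPKM in Vector. Its locus holds a processed copy of the glycolytic gene ENO1, which was at 677 RPKM in RIPK1 and 575 RPKM in Vector. All values of copies are uncertain, because reads may be shared with the parent and the handling of such reads is not given in the sources used here.

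**Figure D5:**
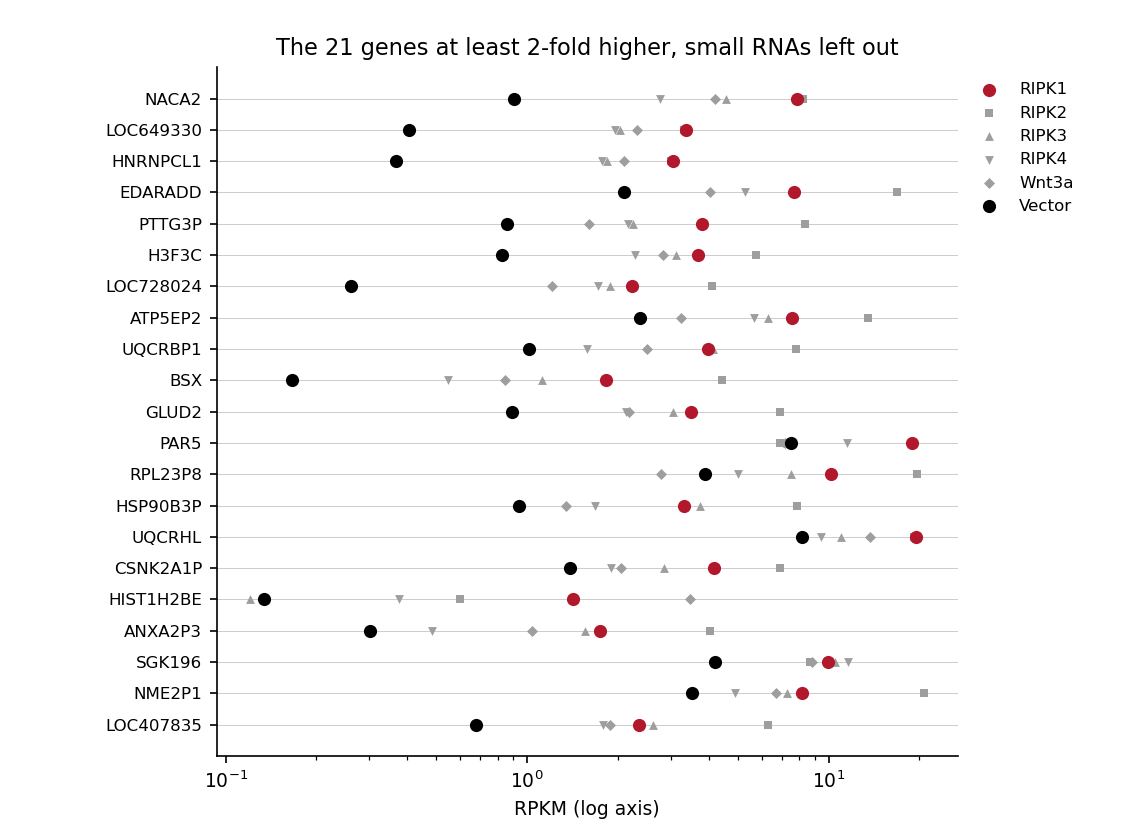
RPKM, on a log axis, of the 21 genes at least 2-fold higher with RIPK1 that are not small RNAs; each point is 1 library. The Vector points lie lowest for 18 of the 21 genes, whereas RIPK2, at the right end for most, often exceeds RIPK1.

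Rises that were not copies were few. PAR5, a noncoding transcript of the imprinted Prader-Willi region, stood at 18.9 RPKM in RIPK1, 6.89 in RIPK2, 7.27 in RIPK3, 11.5 in RIPK4 and 7.16 in Wnt3a, and at 7.53 RPKM in Vector, 2.51-fold higher (2.25 to 2.81) with 1246 reads against 438. Here RIPK1 alone was the highest library and Vector was in the middle. SGK196, the kinase-like protein that phosphorylates O-mannose on dystroglycan, was at 9.93 RPKM in RIPK1, 8.70 to 11.6 RPKM in RIPK2, RIPK3, RIPK4 and Wnt3a, and 4.2 RPKM in Vector. The homeobox gene BSX had 25 reads in RIPK1 and 2 in Vector, a ratio of 11 with an interval of 2.75 to 96.3. HIST1H2BE had 12 reads in RIPK1 and 1 in Vector, and histone genes are nearly alike in sequence.

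Box C/D small nucleolar RNAs of the SNORD116 cluster, which lies in the same imprinted region as PAR5, were examined after their values were seen. The 20 short entries above 0 summed to 290 reads in RIPK1, 164 in RIPK2, 161 in RIPK3, 253 in RIPK4 and 202 in Wnt3a, and to 169 in Vector. Relative to the library totals this was a ratio of 1.52 (1.25 to 1.84). RIPK1 and RIPK4 were the high libraries for both the cluster and PAR5. IPW, a noncoding transcript of the region, was at 52.9 RPKM in RIPK1 and 53.1 RPKM in Vector. The copies of the cluster are near identical, so that only their sum is given.

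Small RNAs otherwise differed in both directions on few reads. Among 176 kept, 17 were lower and 14 higher, and 27 of these 31 averaged under 20 reads over the compared libraries. The interval of the ratio excluded 1 for 15 of them. Vector was the highest library for 14 of the 17 that were lower, as it was for 66 of all 176. SNORD47, a guide for ribosomal RNA methylation, had 69 reads in RIPK1 and 206 in Vector, 3.38-fold lower (2.56 to 4.50). RMRP, the RNA of the mitochondrial RNA processing ribonuclease, had 18 reads in RIPK1 and 0 in Vector, while the other 4 libraries held 3.56 to 4.53 RPKM.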

How the data were processed

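The authors deposited RPKM values (reads per gene length and library total) in 1 table with a column for each of the 6 libraries, not pooled, per the file headers. GSNAP, DESeq and hg19 are named in the submitters' processing notes. For the annotation, the strand of counting, reads with several matches, and the roles and versions of these tools, the sources used here give nothing. All 6 columns were matched to samples by title, and per-sample columns not used numbered 0. Groups came from the transfection field of the labels.

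From the deposited RPKM, whole reads were recovered: lengths of 15 to 30000 bases were tried for each gene, and the one taken had to turn each library's value into a whole number to within its 5 significant digits. It was found for 11407 of 11881 genes (96.0%), RIPK1 itself included. For the others, IFI6, IFIT1 and ISG15 among them, reads were approximated from the longest GENCODE 29 transcript, whose length served for nothing else than this and GC content. Totals of 17.2 M to 19.5 M reads follow from the recovery. A difference is that of log2(RPKM + 1), RIPK1 minus Vector, and a gene was called at 2-fold. With 1 library per group no test of the condition exists, and the ratio of a gene's reads, with its exact 95% binomial interval, compares libraries. Since molecules carried no identifiers, intervals cover counting error only.

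Members, gene lists and tests were chosen with earlier results of these data known, so a list's count and median are descriptions beside the same over all genes. Named by rule were RIPK1, the 25 largest rises and 25 largest falls without small RNAs and unnamed transcripts (18 rises and 25 falls qualified), all interferon list members, up to 4 members of every other list, genes 2-fold apart from all 5 other libraries, and parents of copies. Others are marked where they appear, and some named by the rule are not reported here, though they enter the counts and medians. Gene classes, gene order and promoter windows came from RefSeq (GRCh38.p14), which matched 20382 genes by identifier. No coordinates of it were applied to the hg19 values. Alternatives were a pseudocount of 0.1, 2 other filters on RPKM, median-ratio scaling, removal of the GC trend by lowess, the median of the other 5 libraries as reference, protein-coding genes only, and at least 20 reads. The method was tested on simulated data. Python 3.11.15, numpy 2.4.6, pandas 2.3.3, scipy 1.17.1, statsmodels 0.14.6 and matplotlib 3.10.9 were used.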

Additional observations from a re-analysis of the deposited data

How the results depend on the processing

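The count of 37 interferon list genes at least 2-fold lower ranged from 33 (mean RPKM of at least 5) to 44 (pseudocount of 0.1), and the median of the lists from -0.51 (no filter) to -0.86 (pseudocount of 0.1). The 65 genes lower became 112 with a pseudocount of 0.1, and between 46 and 78 under the other alternatives. The 35 genes higher were less stable: they became 69 with a pseudocount of 0.1, 12 with a mean RPKM of at least 5, 19 with at least 20 reads, 11 among protein-coding genes only, and 18 with the median of the other 5 libraries as the reference. With that reference, 78 genes were lower, and 6 of the 35 rises and 46 of the 65 falls were still at least 2-fold apart in their direction, while 2 rises and 3 falls turned round, all 5 of them small RNAs. Median-ratio scaling shifted the median of all genes to -0.02. Among 1515 values of 198 named genes under alternatives, 120 moved past the set tolerance, 86 of them with the median of the other 5 libraries as the reference, and no called gene among these 198 reversed. The medians of the pathway lists lay on both sides of 0 for pluripotency (-0.06 to 0.11) and stress response genes (-0.12 to 0.03), so no direction is read from these. No paired analysis was possible because each group has 1 library.

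Low values limit what could be seen: 33 interferon list genes were below the filter, and 31 of the 100 calls rested on fewer than 20 reads on average. A gene at 0 in RIPK1 is known only to lie under a floor of 3 reads.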

Other observations

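Replication-dependent histone genes, measured here in total RNA, had a median of -0.26 over 18 kept genes, with 13 below Vector and 1 at least 2-fold higher. Their summed level was 111 RPKM in RIPK1 and 152 RPKM in Vector, and Vector was the highest of the 6 libraries. These genes are near-identical copies of one another, so single values are uncertain. Of the long transcripts of the Prader-Willi region, SNRPN was at 235 RPKM in RIPK1 and 221 RPKM in Vector, and SNURF, the upstream reading frame of the same transcript, at 715 and 624 RPKM. TGF-beta pathway genes below the 2-fold rule included the inhibitors of differentiation ID4, at 35.3 RPKM in RIPK1 and 54.8 RPKM in Vector (1.55-fold lower, 1.46 to 1.66), and ID1, at 97.2 and 131 RPKM.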
